A study of Homo sapiens with 2 samples.

Results

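Interferon response genes were followed in single blood progenitor cells made from iPS11, a human induced pluripotent stem cell line. The 9 genes, taken by symbol from the 32738 genes of the deposited table, were *IFI6*, *IRF1*, *PSME1*, *PSME2*, *ISG15*, *IFITM1*, *IFITM3*, *IFI16* and *IDO1*. CD34+ cells enriched from differentiating aggregates had been cultured for 5 days through endothelial-to-hematopoietic transition (EHT), on plates that were uncoated or coated with VCAM1, with DLL4 or with both proteins. Nonadherent cells of 3 wells per coating were pooled, marked with 1 of 4 hashtag antibodies and captured together in 1 library. All cells therefore share the line, the medium, the day and the capture, and no condition has a replicate. Which coating each hashtag marked is not given in the sources used here, so the hashtags are called by number, 0252 to 0255.

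Of 10836 cell barcodes, 8488 had a single hashtag call and 7550 of these were kept under the study's upper limits of 36000 unique molecular identifiers (UMIs), 6000 genes and 18% mitochondrial UMIs. They comprised 2136 cells of 0252, 1996 of 0253, 1847 of 0254 and 1571 of 0255, with a median of 17621 to 18770 UMIs per cell by hashtag. Levels are UMIs of a gene per 1000000 UMIs (CPM), summed over the cells of a hashtag or a class of cells. Intervals are exact at 95% and cover counting error only. Since cells of 1 library are not replicates, no p-value was computed.

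Interferons are secreted proteins that signal through receptor-bound kinases to transcription factors. Type I interferons act mainly through the interferon-stimulated response element in the promoters of their targets, and interferon gamma mainly through the gamma-activated (GAS) element. IRF1 is a transcription factor induced mainly through the latter, ISG15 is a ubiquitin-like modifier, IFI6 and the membrane proteins IFITM1 and IFITM3 restrict viruses, and IFI16 senses DNA. PSME1 and PSME2 form the activator ring of the immunoproteasome, which cuts peptides for presentation, and IDO1 breaks down tryptophan.

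The promoter stretches of *ISG15*, *IFI6*, *PSME2* and *IRF1* are shown as 4 of the 6 members that were lowest in 0252 and highest in 0255, and were picked with their matches known. The windows of the other two, *PSME1* and *IFI16*, are described below. They are RefSeq sequence of build GRCh38.p14, 5′ to 3′ on the strand of the gene, ending at the base before its start. Capitals mark matches to the core of the response element, GAAANNGAA on either strand, or to the GAS letters TTCNNNGAA, which read the same on both strands.
ISG15: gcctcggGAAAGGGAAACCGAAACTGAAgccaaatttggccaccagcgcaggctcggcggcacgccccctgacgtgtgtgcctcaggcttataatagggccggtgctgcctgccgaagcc
IFI6: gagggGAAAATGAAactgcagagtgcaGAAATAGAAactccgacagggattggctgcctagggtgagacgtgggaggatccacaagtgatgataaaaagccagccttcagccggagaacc
PSME2: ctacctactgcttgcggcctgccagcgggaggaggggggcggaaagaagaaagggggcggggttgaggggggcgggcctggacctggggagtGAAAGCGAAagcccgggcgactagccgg
IRF1: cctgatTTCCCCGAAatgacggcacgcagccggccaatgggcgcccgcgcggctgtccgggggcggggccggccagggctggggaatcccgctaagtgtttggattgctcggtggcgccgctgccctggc

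The *ISG15* stretch is chr1:1013377-1013496 on the plus strand and holds 3 overlapping matches to the response element core. The *IFI6* stretch is chr1:27672193-27672312 on the minus strand and holds 2 matches, with another from 156 to 148 bases before the start. The *PSME2* stretch is chr14:24146611-24146730 on the minus strand, with 1 match from 28 to 20 bases before the start. The *IRF1* stretch is chr5:132490774-132490903 on the minus strand, and it holds 1 GAS match, from 124 to 116 bases before the start, and no match to the response element core. Over windows from 250 bases before to 50 bases after the start, *IFITM1* and *IFITM3* each held 2 matches to the core. One of those of *IFITM1* ran across the start, and *IFITM1* also held a GAS match from 12 to 4 bases before it. *PSME1* held 1 match to the core, which lay after the start. *IFI16* held 1 in the second of its 2 listed windows and none in the first. Among all 35116 promoter windows of the same length, 8.11% held the core and 7.66% the GAS letters, so a match by itself is not rare. These are matches of letters, not measured sites.

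Between hashtags, *IDO1*, *IFI6*, *ISG15* and *IRF1* differed by more than 1.5-fold from the lowest to the highest, and *PSME2*, *IFITM1*, *IFI16*, *PSME1* and *IFITM3* by less. Thus 4 of the 9 members were past 1.5-fold, beside 8.32% of the 10521 genes with at least 500 UMIs. The median ratio was 1.46 over the members and 1.14 over all these genes. Of the members, 6 were lowest in 0252 and highest in 0255, an order found in 12.3% of all genes tested. This order was not stable for each member. With each cell thinned at random to 5000 UMIs, *IFI6* was highest in 0253, and *IRF1* and *IFI16* were lowest in 0253. *IFITM3*, not among the 6, then took the order. The study had already reported *IFI6*, *IRF1*, *PSME1* and *PSME2* as raised by VCAM1 in progenitors of these same data. The members were thus not chosen independently of these differences, and the shares of all genes are a description, not a test. A limit of 10% on mitochondrial UMIs kept only 736 cells, and *IRF1* was then below 1.5-fold, at 1.30. With that limit 5 members were past 1.5-fold between the same pairs of hashtags, and 7 when the highest and lowest hashtag were taken anew. *IFI6* and *ISG15* were then highest in 0254 and *IFI16* was lowest in 0253, while *IFITM3* was lowest in 0252 and highest in 0255.

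The level of *IFI6* was 27.3 CPM in 0252 (25.7 to 29.0), 55.6 in 0253 (53.3 to 58.0), 56.7 in 0254 (54.2 to 59.3) and 60.5 in 0255 (57.7 to 63.4). Hashtag 0252 was thus apart from the other 3, which lay close together. The ratio of 0255 to 0252 was 2.21 (2.05 to 2.39), whereas 0254 and 0253 did not differ beyond counting error, with a ratio of 1.02 (0.958 to 1.08).

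*ISG15* was instead higher with each hashtag number, at 145.8 CPM in 0252, 197.1 in 0253, 242.2 in 0254 and 265.0 in 0255, with intervals that did not overlap. The ratio of 0255 to 0252 was 1.82 (1.76 to 1.88). *IRF1* followed the same order at 23.4, 27.9, 34.6 and 42.4 CPM, a ratio of 1.81 (1.66 to 1.98), again with separate intervals.

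The immunoproteasome pair kept this order with smaller steps. *PSME2* was at 261.3, 302.6, 328.9 and 380.7 CPM from 0252 to 0255, a ratio of 1.46 (1.42 to 1.497). *PSME1* was at 177.1, 192.2, 213.3 and 235.6 CPM, a ratio of 1.33 (1.29 to 1.38). The DNA sensor *IFI16* was at 115.6, 118.9, 129.4 and 154.8 CPM, and mainly 0255 stood above the rest.

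The antiviral membrane proteins did not follow. *IFITM3* was between 172.7 CPM in 0252 and 193.0 in 0253, a ratio of only 1.12 (1.08 to 1.16), and 0255 at 190.7 was within counting error of 0253. *IFITM1* was lowest in 0253 at 13.96 CPM and highest in 0254 at 19.6, a ratio of 1.41 (1.253 to 1.58) that was 3.11 at the mitochondrial limit of 10%. *IFITM1* and *IFITM3* lie side by side on chromosome 11 of hg19 in the GENCODE annotation (310041 to 315272, plus strand, and 319676 to 329475, minus strand). They are close copies of each other and of *IFITM2*, so the counting could have dropped or misplaced some of their reads. Whether it did was not tested.

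*IDO1* had the widest range with the fewest UMIs, 1757 in all. It was at 8.91 CPM in 0252, 5.80 in 0253, 14.3 in 0254 and 23.7 in 0255, so that 0253 and not 0252 was lowest. The ratio of 0255 to 0253 was 4.09 (3.51 to 4.78).

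**Figure D1:**
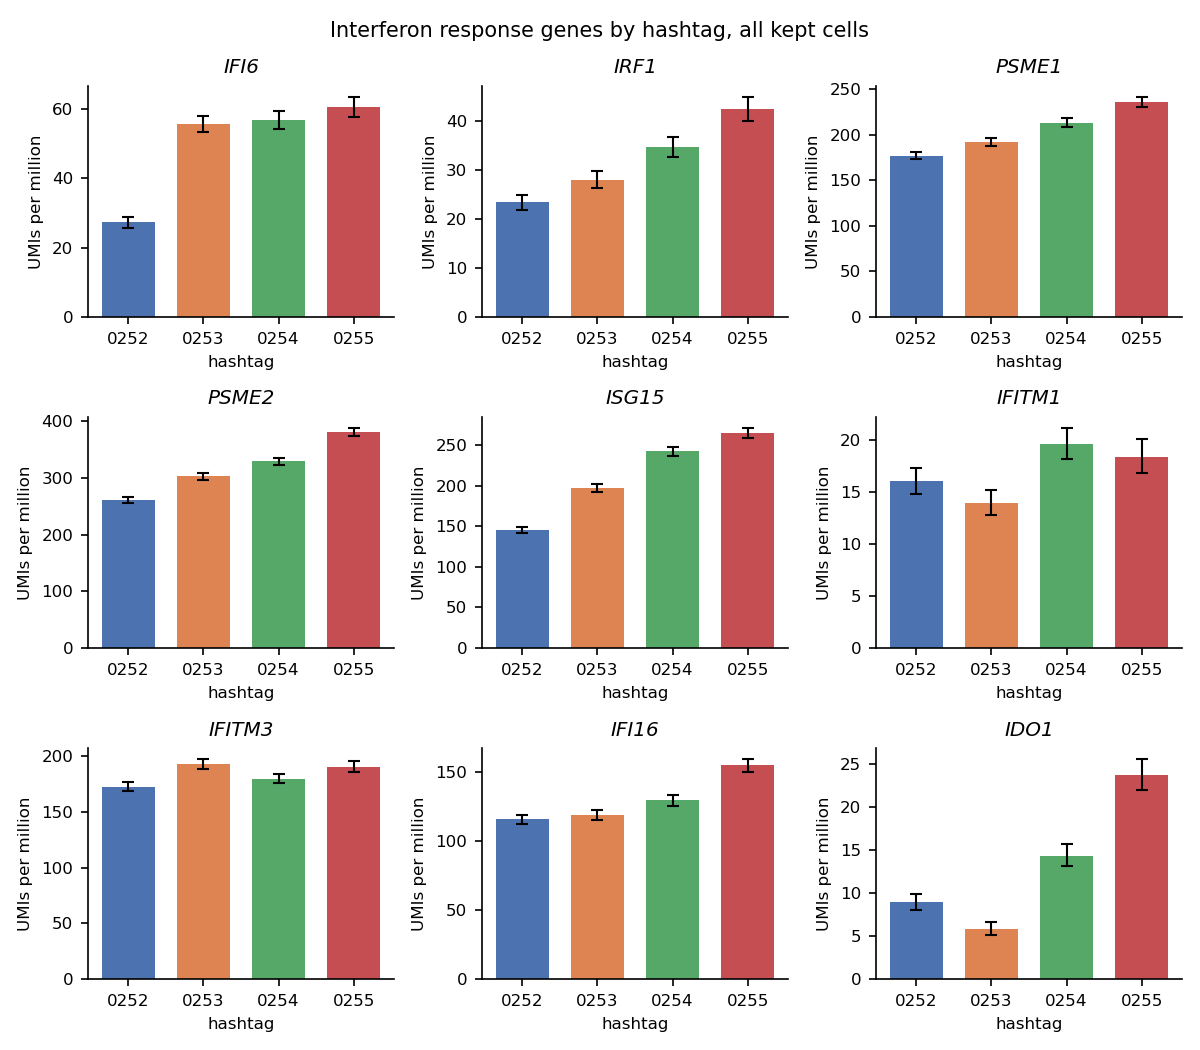
Level of each interferon response gene in CPM (vertical axes from 0, a scale per gene) by hashtag, summed over all kept cells; error bars are exact Poisson 95% intervals for counting error. *IFI6* separates 0252 at 27.3 CPM from the other hashtags at 55.6 to 60.5, whereas *IFITM3* stays between 172.7 and 193.0.

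The hashtags held different mixtures of cells, and the members' levels depended on the kind of cell. Cells were placed in classes by marker genes and are called by these genes, not as cell types. The classes were 2449 CD34/GATA2-positive cells, with a UMI of both progenitor genes and no other marker, 707 positive for the progenitor gene *SPINK2*, 668 positive for HLA class II (*HLA-DRA*) without C1Q, 499 positive for C1Q, a complement component of macrophages, 85 positive for the neutrophil elastase gene *ELANE*, and 39 positive for the sum of the platelet genes *PF4* and *PPBP*. In the last class *PPBP* was at 1634 CPM and *PF4* had only 2 UMIs. Smaller classes were 86 collagen-positive and 175 globin-positive cells, while 70 cells passed markers of more than 1 lineage and 2772 passed none. The 70 cells had *PPBP* at 4282 CPM and *PF4* at 57.4, so most of the platelet signal was in them. Levels of *CD34* in CD34/GATA2-positive cells were 188.0 CPM, against 8.47 CPM in C1Q-positive cells, and *C1QB* was at 795.6 CPM in the latter, against 1.58 CPM. The HLA class II-positive cells were below the limit for C1Q but not free of it, with *C1QB* at 64.0 CPM. Median depth was 20263 UMIs in CD34/GATA2-positive and 11975 in C1Q-positive cells.

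Relative to CD34/GATA2-positive cells, C1Q-positive cells had 4 of the 9 members at least 2-fold higher (*IDO1*, *IFI6*, *IFI16* and *ISG15*), beside 10.5% of all genes tested. None of the members was at least 2-fold lower, beside 12.6% of all genes. The study had already named *IFI16* among the marker genes of its myeloid progenitor cluster in these same data. Its higher level here is thus not independent of that result, and these shares are a description, not a test.

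*IFI6* was at 26.2 CPM in CD34/GATA2-positive cells (24.8 to 27.6), 45.4 in SPINK2-positive, 77.7 in HLA class II-positive and 225.5 in C1Q-positive cells (214.2 to 237.2), an 8.61-fold range (7.99 to 9.27). The same 4 classes had *ISG15* at 167.8, 207.0, 294.4 and 527.2 CPM, a 3.14-fold range (3.02 to 3.27). They had *IFI16* at 53.4, 163.2, 283.2 and 379.7 CPM. Thus 3 members had 1 order over these 4 classes, lowest in CD34/GATA2-positive and highest in C1Q-positive cells. Without the cells rich in *ISG15* and *IFI6*, which are described further on, the ratio of C1Q-positive to CD34/GATA2-positive cells was 5.34 for *IFI6* and 1.56 for *ISG15*, and with classes called at 1 UMI of their markers it was 3.23 and 1.35. Both alternatives were chosen after the data were seen, and in both *ISG15* was below 2-fold.

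*IDO1* peaked elsewhere. It was at 84.4 CPM in HLA class II-positive cells (78.9 to 90.1), 26.3 in C1Q-positive, 15.7 in SPINK2-positive and 1.26 in CD34/GATA2-positive cells, and no UMI was found in 175 globin-positive cells. *IDO1* also led the HLA class II class, whose marker, *HLA-DRA*, is itself an interferon gamma target. *PSME2* was also highest there, at 473.3 CPM, against 244.8 in CD34/GATA2-positive cells.

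*IRF1* showed another pattern, with its highest level in SPINK2-positive cells, at 42.2 CPM (38.9 to 45.7). It was at 32.8 in CD34/GATA2-positive, 30.9 in HLA class II-positive and 29.96 in C1Q-positive cells, which did not differ beyond counting error. *PSME1* was also highest in SPINK2-positive cells, at 264.9 CPM. *IFITM1* was highest in CD34/GATA2-positive cells, at 22.5 CPM (21.2 to 23.8), within counting error of collagen-positive cells at 20.4 (13.3 to 29.9), and had 0.565 times that level in C1Q-positive cells (0.448 to 0.706).

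ELANE-positive cells had the lowest level of 4 members among these classes, with *ISG15* at 62.3 CPM, *IFITM3* at 54.0, *IFI6* at 13.7 and *IFITM1* at 1.83, the last from 2 UMIs. *IRF1* was at 10.1 CPM in these 85 cells. PF4/PPBP-positive cells had *IFITM3* at 428.1 CPM (383.7 to 476.4), 2.10 times its level in CD34/GATA2-positive cells, but *IRF1* at only 8.89 CPM from 7 UMIs. *IFITM3* was also high in globin-positive cells, at 504.4 CPM, and in collagen-positive cells, at 861.4 CPM. Collagen-positive cells had *ISG15* at 782.3 CPM and *IFI6* at 207.7 as well, but *PSME1* at 96.4, its lowest level.

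**Figure D2:**
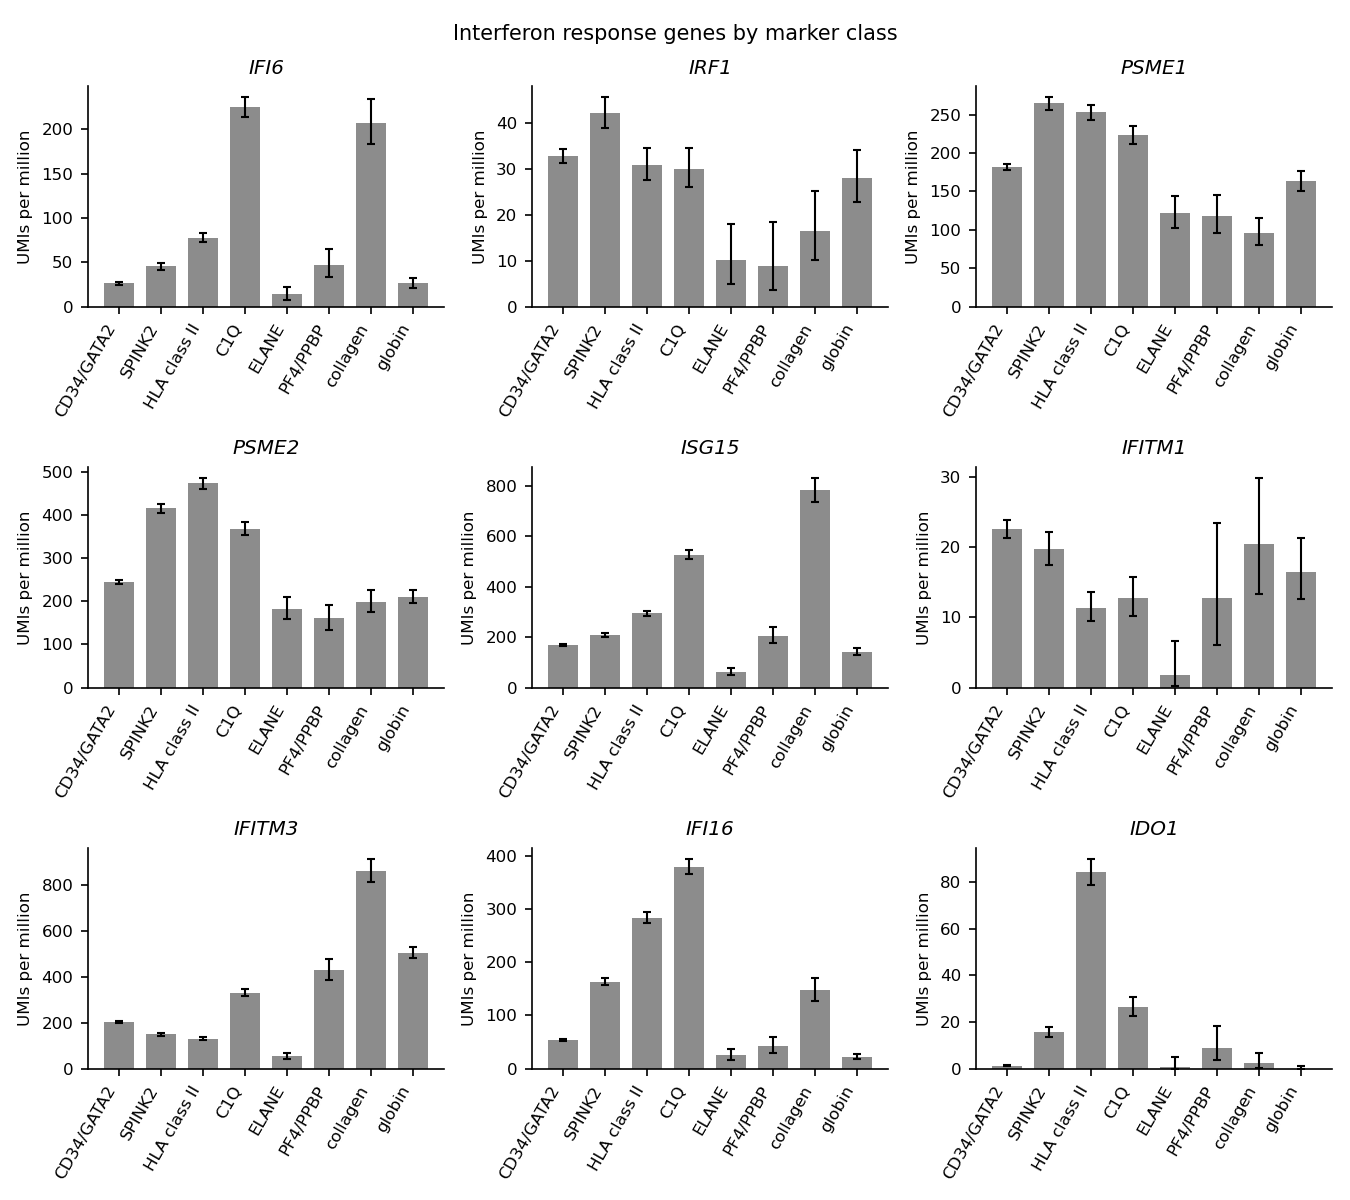
Level of each interferon response gene in CPM (vertical axes from 0, a scale per gene) in 8 marker classes over all hashtags; error bars are exact Poisson 95% intervals. *IFI6* and *ISG15* are high in C1Q-positive and collagen-positive cells, *IDO1* is highest in HLA class II-positive cells at 84.4 CPM, and *IRF1* is highest in SPINK2-positive cells at 42.2 CPM.

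Several classes were spread unevenly over the hashtags. Collagen-positive cells numbered 9, 8, 14 and 55 from 0252 to 0255, ELANE-positive cells 46, 32, 4 and 3, and SPINK2-positive cells 188, 98, 208 and 213, whereas C1Q-positive cells made up 5.60 to 7.49% of each hashtag. When the hashtags were weighted to 1 mix of classes, the ratio of the highest to the lowest was 2.14 for *IFI6*, 1.77 for *IRF1*, 1.75 for *ISG15*, 1.39 for *PSME2* and 2.96 for *IDO1*. Without the collagen-positive cells, *IFI6* had a ratio of 2.13 and *ISG15* of 1.76. The differences between hashtags were therefore also present at a fixed mix of these classes, though smaller for *IDO1*, and for *IFI16* at 1.22 against 1.34. The cells that passed no marker, 33.0 to 42.9% of a hashtag, counted as 1 class, and the mix of cells within it was not tested. In that class the ratio of 0255 to 0252 was 2.54 for *IFI6*, 2.29 for *ISG15* and 2.32 for *IRF1*.

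In the CD34/GATA2-positive class, 3 of the 8 members with at least 500 UMIs were past 1.5-fold between hashtags, beside 4.38% of 7715 genes tested there. Among them, *IFI6* and *IRF1* had been reported by the study as raised by VCAM1 in progenitors, so this is no independent test. *IFI6* was at 16.7, 31.6, 25.7 and 35.3 CPM from 0252 to 0255, a ratio of 2.11 (1.78 to 2.50). *IFI16* was at 40.5, 41.4, 63.5 and 80.5 CPM, so that 0254 and 0255 stood above 0252 and 0253. *IRF1* was at 22.6, 34.0, 37.1 and 42.4 CPM, with 0252 below the other 3. Calling the classes at 1 UMI of their markers left 1 member past 1.5-fold in this class, and so did the limit of 10% on mitochondrial UMIs. In each, the minimum of 500 UMIs was applied anew to fewer cells. How many members met it was not counted, so the 1 cannot be set against 3 of 8.

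The other 5 members with at least 500 UMIs in these progenitors were below 1.5-fold. *IDO1* had 65 UMIs there and a ratio of 2.36 (1.08 to 5.28). *ISG15* was at 156.2, 159.8, 177.9 and 185.9 CPM, a ratio of 1.19 (1.12 to 1.27), much narrower than over all cells. *PSME2* was at 213.0 to 289.0 CPM and *PSME1* at 158.4 to 200.9, both higher with each hashtag number. For *PSME1*, however, the ratio of 0254 to 0253 was 1.05 (0.994 to 1.11) and that of 0255 to 0254 was 1.04 (0.977 to 1.10). These steps were within counting error. *IFITM3* was at 223.7 CPM in 0253 and at 183.9 in 0254, which was lowest here.

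In C1Q-positive cells, 0252 lay further below the other hashtags for *ISG15*, *IFI6* and *IFITM3*. *ISG15* was at 231.9 CPM in 0252 but 737.9 in 0253, 655.1 in 0254 and 546.6 in 0255, and its ratio of 0253 to 0252 was 3.18 (2.86 to 3.54). *IFI6* was at 107.8, 317.8, 258.6 and 247.4 CPM, and *IFITM3* at 209.8, 411.3, 360.5 and 383.4. In all 3 genes, 0253 was highest in this class, unlike *IFI6* and *ISG15* over all cells. For *IFITM3*, however, 0255 was within counting error of 0253, with a ratio of 0.932 (0.825 to 1.05). *IFITM1* was at 7.35, 12.3, 13.4 and 21.9 CPM, from 15 UMIs in 0252, and 0253 and 0254 did not differ from 0252 beyond counting error. *IRF1* did not separate the hashtags here, with 25.4 to 33.2 CPM and a ratio of 1.30 (0.820 to 2.12).

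*IDO1* was at 6.37, 17.5, 34.9 and 62.3 CPM in C1Q-positive cells from 0252 to 0255, a ratio of 9.77 (5.37 to 19.3) that rests on 13 UMIs in 0252. In HLA class II-positive cells it was at 56.7, 37.03, 97.0 and 137.9 CPM. *IFI16* went the other way in the latter class, at 333.2 CPM in 0252 and 251.6 in 0255. In SPINK2-positive cells, *IFITM3* was at 97.8 CPM in 0252 and at 159.0 to 174.2 in the others, and *IRF1* was at 58.7 in 0255 against 30.1 in 0252.

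**Figure D3:**
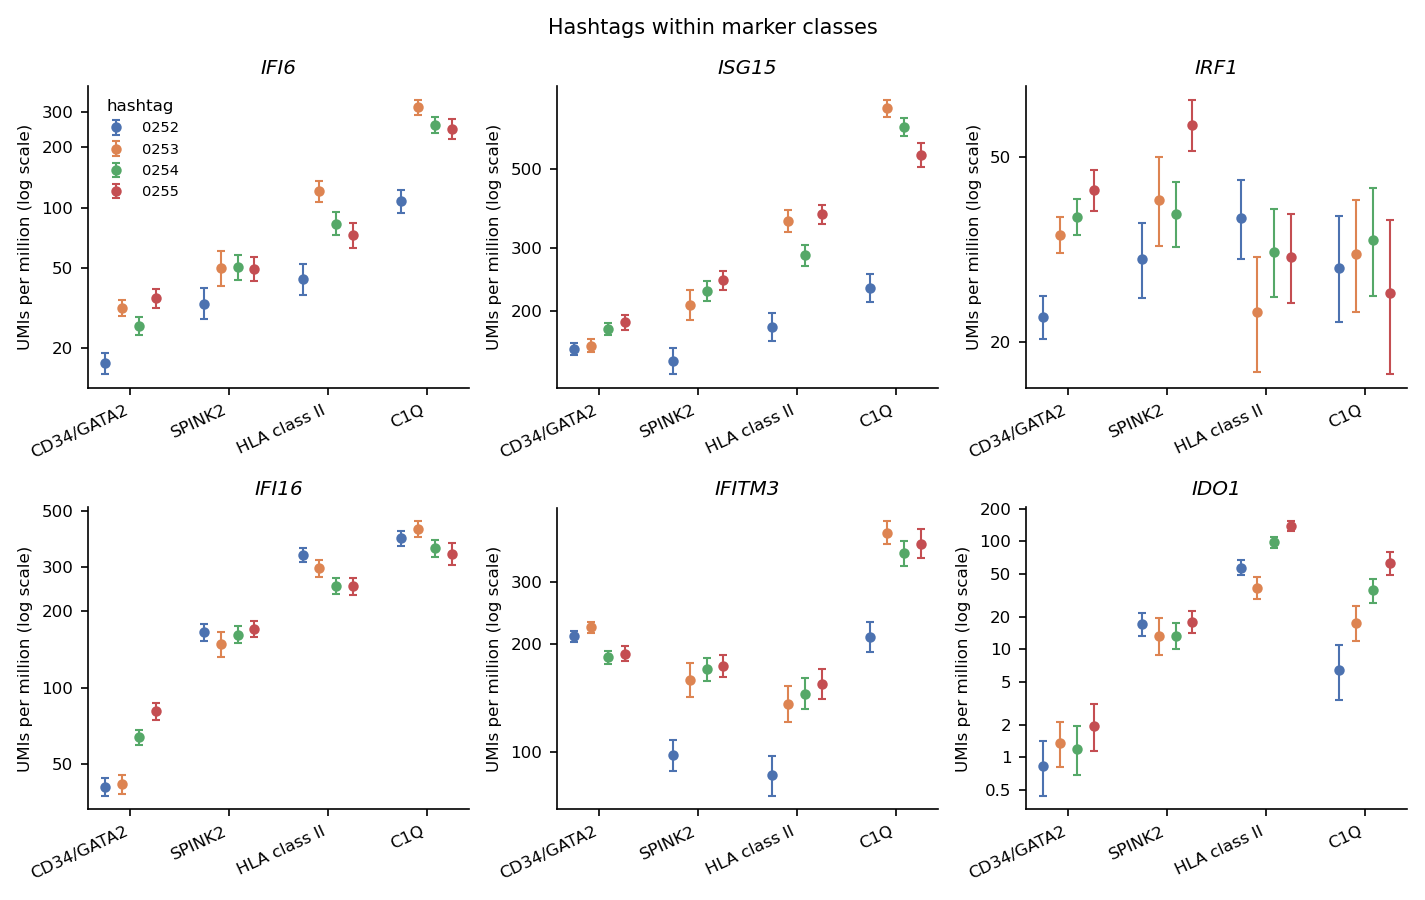
Levels of 6 members in CPM (log scale) by hashtag within 4 marker classes; points are summed levels and bars exact Poisson 95% intervals. Hashtag 0252 is lowest for *IFI6* and *ISG15* in each of the 4 classes, while *IRF1* is lowest in 0252 only in CD34/GATA2-positive and SPINK2-positive cells.

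Some members were found in nearly all cells and others in few. *PSME2* had a UMI in 96.4% of cells (95.9 to 96.8), *PSME1* in 93.4%, *ISG15* in 80.3%, *IFITM3* in 71.5%, *IFI16* in 67.6%, *IFI6* in 38.1%, *IRF1* in 36.8%, *IFITM1* in 24.8% and *IDO1* in 8.46% (7.85 to 9.11). Thus 5 members had a UMI in over 50% of cells. The share of all genes past this limit was not computed, so the count does not set the members apart from other genes. With each cell thinned at random to 5000 UMIs, which left out 68 shallower cells, these shares were 75.6, 61.7, 48.8, 43.3, 40.1, 17.6, 13.8, 7.83 and 4.14% in the same order. Shares also reflect how many molecules a gene has, so the next comparison sets each against an even spread of the same UMIs.

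*IRF1* and *IFITM1* had a mean of only 0.160 and 0.0831 thinned UMIs per cell, where such shares can show only a marked unevenness. *IRF1* was found in 13.8% of cells, against 14.8% with an even spread, and *IFITM1* in 7.83%, against 7.98%. *IDO1*, with a mean of 0.0714, was found in 4.14%, against 6.89%. *PSME1* and *ISG15* had similar means, of 1.04 and 1.17. Had their UMIs been spread over cells by chance alone, 64.5% of cells would have had a *PSME1* UMI, against 61.7% observed. An even spread would have given 69.0% of cells an *ISG15* UMI, against 48.8% observed, and 25.3% an *IFI6* UMI, against 17.6%. The variance of thinned UMIs over cells was 4.90 times the mean for *ISG15*, 2.75 times for *IFITM3*, 2.66 times for *IDO1* and 2.49 times for *IFI6*, but 1.18 times for *PSME1*. This measure also depends on the mean, so it is read only between genes of like mean, as *ISG15* and *PSME1*.

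After the same thinning, the top 1% of cells held 20.7% of the *IFI6* UMIs, 14.9% of the *ISG15* UMIs and 47.4% of the *IDO1* UMIs. The share was 4.52% for *PSME2*, 14.9% for *IRF1* and 17.8% for *IFITM1*. It also depends on the mean, so it is read only between genes of like mean. *ISG15* at 14.9% is set against *PSME1* at 5.12%. *IDO1*, with a mean of 0.0714 thinned UMIs, is set against *IFITM1*, with 0.0831. Before thinning, a single cell reached 145 *ISG15* UMIs, while the median cell had 2. By hashtag, the thinned share of cells with *ISG15* was 39.0, 47.6, 54.8 and 56.4% from 0252 to 0255, and that with *IFI6* was 11.4, 20.5, 19.6 and 19.8%. Free RNA can add UMIs to any droplet, and its part in these shares was not tested. In ELANE-positive cells the thinned share was 30.1% for *ISG15*, the lowest of the classes, 14.5% for *IFITM3*, 6.02% for *IFI6* and 4.82% for *IRF1*. An *IDO1* UMI was found in 0 of 175 globin-positive cells, where 3 counts would be 1.71% and the exact upper limit for cells with a UMI was 2.09%, and in 40.7% of HLA class II-positive cells, at median depths of 19799 and 14922 UMIs.

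**Figure D4:**
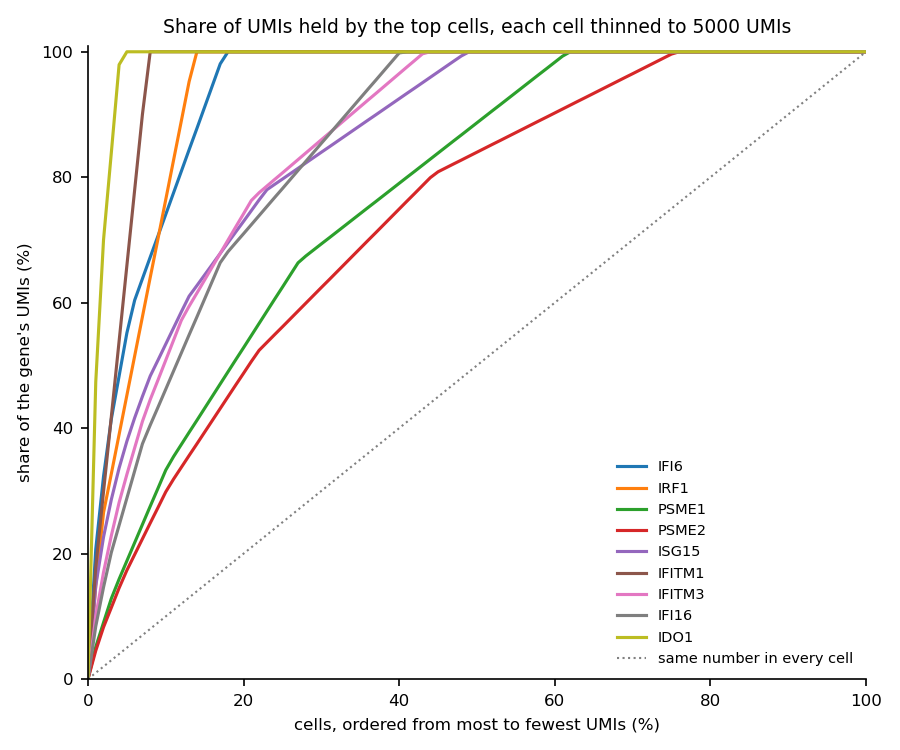
Share of the UMIs of each gene (vertical axis, %) held by the cells with most of them (horizontal axis, % of cells), each cell thinned to 5000 UMIs; the dotted line is the same number in every cell. The curves of *IDO1*, *IFITM1*, *IRF1* and *IFI6* reach 100% within 18% of cells, and the top 1% of cells holds 47.4% of the *IDO1* UMIs. Curves also depend on the mean of a gene and are read only between genes of like mean.

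Cells rich in *ISG15* and *IFI6*, defined after the data were seen as at least 15 UMIs of both together per 10000, numbered 234, or 3.10% of cells. They made up 1.17% of 0252 (0.759 to 1.72), 3.06% of 0253, 4.60% of 0254 and 4.01% of 0255. By class they made up 15.4% of C1Q-positive (77 cells), 9.30% of collagen-positive (8 cells) and 5.39% of HLA class II-positive cells. They were 2.83% of SPINK2-positive and 0.531% of CD34/GATA2-positive cells. None was among 85 ELANE-positive or 39 PF4/PPBP-positive cells, with exact upper limits of 4.25% and 9.03%, both above the 3.10% of all cells. Another 73 rich cells were among the cells that passed no marker (2.63% of them) and 6 among the 70 cells with markers of more than 1 lineage (8.57%). In C1Q-positive cells the share was 3.75% in 0252 but 23.8, 20.2 and 18.2% in 0253, 0254 and 0255. The rich cells had a lower median depth than the others, 12656 against 18471 UMIs, and a like share of mitochondrial UMIs, 13.3 against 13.1%.

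These cells held 25.9% of the *IFI6* and 22.7% of the *ISG15* UMIs with 2.25% of all UMIs. Among the members that did not define them, *IFI16* was 3.11-fold, *IDO1* 2.76-fold, *IFITM3* 2.66-fold, *IFITM1* 1.92-fold, *PSME2* 1.58-fold and *PSME1* 1.36-fold higher in them, and *IRF1* was at 32.2 against 31.1 CPM. With the rich cells left out, the ratio between hashtags was still 1.89 for *IFI6* and 1.64 for *ISG15*. For these 2 genes the difference by hashtag was thus not held by the cells past this limit alone. Cells just under the limit stayed in. The ratio of *IRF1* was then 1.82, but the rich cells held only 2.33% of its UMIs, so leaving them out could hardly change it.

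Most pairs of members had a low correlation across cells. Of the 36 pairs, 27 had a Pearson correlation of log-scaled levels under 0.2 over 7550 cells, the median was 0.09, and *IFI6* with *ISG15* was the only one over 0.5, at 0.56. This pair was at 0.69 in C1Q-positive and 0.31 in CD34/GATA2-positive cells. With cells thinned to 5000 UMIs it was at 0.38 over all, 0.57 in C1Q-positive and 0.15 in CD34/GATA2-positive cells. *IRF1* was at 0.01 with *IFI6* and 0.08 with *ISG15*. The cells share a library and differ in depth, and in counts this sparse a low value says little.

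Of genes outside the 9, those most like *IFI6* and *ISG15* were interferon targets, *MX1* at 0.48 and 0.46 and *EPSTI1* at 0.39 and 0.35, followed by *OAS1* and *IFIT1*. *IDO1* was nearest to *S100B* at 0.42, *PSMB9* at 0.41 and *HLA-DRA* at 0.38. *IFI16* was nearest to *LSP1* at 0.56, *S100B* and *AMICA1*. *PSME2* was nearest to *ACY3* at 0.36, *ABI3* and *LSP1*, and *PSME1* to *B2M*, *ACY3* and *PSMB8*, all at 0.23 to 0.25. *IFITM3* was nearest to *PRKAR2B* at 0.41, *CMTM5* and *GMPR*. *IRF1*, with *GSTP1* at 0.17, *TNFSF10* and *CD82*, and *IFITM1*, with *IFITM2* at 0.23, *SAMSN1* and *GATA2*, had no close partner.

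Other genes of the pathway were read from lists. The 12 interferon ligands were nearly silent: *IFNL1* had 17 UMIs, *IFNB1* 8, *IFNE* 4 and *IFNL3* 1 over all cells, and the other 8, including *IFNG*, had none. The receptors and signal transducers were measured, and 0 of 5 receptors, 0 of 6 transducers and 0 of 7 nucleic acid sensors and adaptors with at least 500 UMIs were past 1.5-fold between hashtags. With 8.32% of all genes past this limit, lists this short can hold none, so these counts of 0 do not set them apart. Of the 131 genes listed beside the members, 87 had at least 500 UMIs and 27 of these were past 1.5-fold, beside the 8.32% of all genes. Their median ratio was 1.33.

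Of 36 targets of type I interferon tested, 14 were past 1.5-fold, beside the 8.32% of all genes. In all, 21 of the 36 were lowest in 0252 and highest in 0255, beside the 12.3% of all genes, and 10 of these were past 1.5-fold. *MX1*, an antiviral GTPase, was at 13.9, 23.7, 30.4 and 40.1 CPM from 0252 to 0255, a ratio of 2.88. *EPSTI1* was at 10.99 CPM in 0252 and 27.0 in 0255, *IFIT3* at 8.83 and 19.8, and *OAS1*, which makes the activator of an RNA-cutting enzyme, at 5.12, 10.3, 8.38 and 10.8 from 0252 to 0255. *IRF7*, which amplifies type I responses, was the only interferon regulatory factor past 1.5-fold of the 5 tested beside *IRF1*, at 28.3 CPM in 0252 and 45.4 in 0255.

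The listed targets of interferon gamma did not share 1 order. This list leaves out *IRF1*, although it is induced mainly through the GAS element, and the peptide processing genes, which are read apart below. It therefore does not stand for all genes that interferon gamma induces. The levels given here were not weighted to 1 mix of classes. Of 12 tested, 7 were past 1.5-fold, beside the 8.32% of all genes. Only 1 of the 12 was lowest in 0252 and highest in 0255, beside the 12.3% of all genes. A count this small cannot be told apart from that share. *GBP4* was that gene, at 2.38 CPM in 0252 and 7.15 in 0255. *KYNU*, which acts downstream of IDO1 in tryptophan breakdown, was at 4.53, 3.35, 9.31 and 11.5 CPM, with its lowest level in 0253 as for *IDO1*. *FCGR1A*, an Fc receptor, and *APOL6* were highest in 0253 and lowest in 0255.

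Some peptide processing genes had the order of *PSME1* and *PSME2*. Of 12 tested, 7 were lowest in 0252 and highest in 0255, beside the 12.3% of all genes. Of these 7, 4 were past 1.5-fold, a limit passed by 8.32% of all genes. No other gene of the list was past this limit. The median ratio of the 12 was 1.16, near the 1.14 of all genes tested. *PSMB9*, a catalytic subunit of the immunoproteasome, was at 7.03, 9.85, 16.8 and 27.5 CPM, a ratio of 3.91. The peptide transporter *TAP1* was at 4.06 CPM in 0252 and 8.31 in 0255, *TAPBPL* at 5.44 and 9.33, and the subunit *PSMB8* at 50.5 and 82.7. Of the negative regulators, *SOCS3* ran the other way, at 15.6 CPM in 0252 and 7.57 in 0255.

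Genes induced through NF-kB were read as a comparison. Of 13 tested, 8 were past 1.5-fold, beside the 8.32% of all genes, and the median ratio of the 13 was 2.07. Of these 8, 6 were lowest in 0252, as were 12 of the 14 type I targets past 1.5-fold. None of the 8 was both lowest in 0252 and highest in 0255, an order found in 12.3% of all genes. *CCL4*, *CCL2* and *CCL3*, chemokines of activated macrophages, were highest in 0253, at 27.5, 18.7 and 23.9 CPM, against 7.18, 5.54 and 7.10 in 0252. *CXCL3* was highest in 0252.

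In C1Q-positive cells, 55 of the 87 listed genes were at least 2-fold higher than in CD34/GATA2-positive cells, and 4 were at least 2-fold lower. The 55 included 23 of 36 type I targets, 8 of 12 gamma targets and 9 of 12 peptide processing genes, beside the 10.5% of all genes. Of the NF-kB genes, which are not among the 87, 8 of 13 were also at least 2-fold higher. The largest ratios among type I targets were those of *MX1* (40.8), *IFI27* (32.1), *SAMD9L* (29.4) and *XAF1* (24.1). In the rich cells, 18 of the 87 were at least 5-fold higher than in all other cells, beside 0.665% of all genes tested. The rich cells were picked by *ISG15* and *IFI6*, which across cells were most like type I targets such as *MX1*. The choice itself thus favors such targets, and this count is no test. *IFI27* was 40.04-fold, *IFIT1* 21.6-fold, *MX2* 20.6-fold and *MX1* 19.8-fold higher. *CD14* and *C1QB*, macrophage genes, were 19.4-fold and 9.93-fold higher, and *ACTC1*, which led the collagen-positive class, was 16.3-fold higher. Of the 234 cells, 77 were C1Q-positive and 8 collagen-positive. The part of these cells in the values was not tested.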

How the data were processed

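Droplet single-cell libraries (3′ kit) were aligned to hg19 by the authors with Cell Ranger 6.0.1, which the submitters' processing notes name, and deposited as raw counts of UMIs per gene, with a hashtag call per barcode. Doublets (1339) and negatives (1009) by these calls were left out, and the study's limits on UMIs, genes and mitochondrial UMIs were applied. Scrublet called 77 of the kept cells, which stayed in.

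Classes needed, per 10000 UMIs, 10 of C1Q, 5 of *ELANE*, 5 of *PF4* and *PPBP*, 10 of collagen, 20 of globin, 5 of *HLA-DRA* or 2 of *SPINK2*, in this order. Counts were summed with exact Poisson, Clopper-Pearson and conditional binomial intervals at 95%. Genes needed 500 UMIs. At most 4 genes per list were named, those of the largest ratio past the limit, and 3 partners per member. Ligands, *CD34*, *CD14*, *C1QB* and *ACTC1* were named beyond this rule, for their role or after their values were seen. The members and lists were chosen with earlier results of these data known. Steps were tested on simulated data. Tools were scanpy 1.11.5, pandas 2.3.3, matplotlib 3.10.9, scipy 1.17.1 and numpy 2.4.6 under Python 3.11.15.

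UMIs totalled 142110950 in the kept cells. The study's rank tests over cells were not repeated. Alternatives, given further on, changed the cell limits, doublets, totals, thinning, class limits, class mix and gene minimum.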

Additional observations from a re-analysis of the deposited data

How the results depend on the processing

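With 1 library, no library could be left out, and no paired analysis was possible because no group has more than 1 sample. No ratio past its limit changed direction. The highest or lowest hashtag did change for some members, as given with the comparison of hashtags. The count of members past 1.5-fold between hashtags stayed within 1.5 times of 4, except at the lower limit on the ratio and at a mitochondrial limit of 10%. The latter kept 736 cells and gave 7 members with the highest and lowest hashtag taken anew, 5 between the hashtags of the main values, 1 member in CD34/GATA2-positive cells, 10 listed genes, and 20 listed genes at least 2-fold higher in C1Q-positive cells. The lower limit on the ratio gave 8 members, 5 in CD34/GATA2-positive cells and 53 listed genes. A minimum of 100 UMIs per gene gave 44 listed genes. The share of all genes at these settings was not computed, so these counts cannot be read against the shares at the main limits. At the mitochondrial limit the minimum of 500 UMIs was applied anew to fewer cells in the class and list counts. How many genes met it there was not counted. Thinning to 5000 UMIs left 2 members in over 50% of cells, a limit for which the share of all genes was not computed either. Calling a class at 1 UMI of its markers was an alternative added after the data were seen. It left 1 member past 1.5-fold in CD34/GATA2-positive cells, where the minimum was again applied to fewer cells. It gave a C1Q-positive to CD34/GATA2-positive ratio of 3.23 for *IFI6* and 1.35 for *ISG15*. Without the cells rich in both, also added, that ratio was 5.34 and 1.56. Over 10 alternatives, the ratio between the hashtags of the main values was 1.89 to 2.34 for *IFI6*, 1.64 to 2.48 for *ISG15*, 1.30 to 1.87 for *IRF1*, 1.36 to 3.11 for *IFITM1* and 2.96 to 17.0 for *IDO1*. Over all alternatives, those above included, 51 of 61 counts stayed within 1.5 times of the main count and 10 moved further. Of 180 ratios, 124 stayed within the counting interval of the main value and 56 moved outside it. The causes were not tested. *IDO1* and *IFITM1* had the fewest UMIs of the members, 1757 and 2392.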
